A study of Homo sapiens with 6 samples.

Results

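The insulin and insulin-like growth factor (IGF) receptors, their substrates and their binding proteins were followed on 6 Affymetrix HuGene 1.0 ST arrays of HEK293 lines, as 10 genes among the 18377 that a probe set names alone. The members were taken by gene name, with earlier results of these data known, as the probe sets whose annotation names IGF1R, INSR, IGF2R, IRS1, IRS2, IRS4, IGFBP2, IGFBP3, IGFBP4 or IGFBP5 and no other gene. All 10 genes were measured, IGF1R by 2 probe sets and each other gene by 1. The series compared 3 arrays labelled HEK-BAHD1 with 3 arrays labelled HEK293-CT. HEK293 is an established human embryonic kidney line. Both lines were made in a derivative that carries a single integration site, and both were grown in medium with 10% fetal bovine serum and 200 µg/ml hygromycin B. The serum can itself carry IGFs and their binding proteins, and no insulin or IGF treatment was part of the design. HEK-BAHD1 cells carry 1 integrated copy of the BAHD1 cDNA, which encodes a chromatin repressor, under the constitutive human cytomegalovirus promoter. For HEK293-CT cells the sample labels give a β-galactosidase insert placed out of frame, whereas the study's methods give an empty vector. Each line was a pool of stable transfectants grown in separate flasks, so that p-values cover the spread of cultures within a pool and not that of independent transfections. HEK-BAHD1 replicate 2 was taken at a later passage than HEK293-CT cells and HEK-BAHD1 replicate 1, and the passage of HEK-BAHD1 replicate 3 was not stated.

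The transgene itself was read first. The log2 signal of BAHD1 lay between 6.75 and 7.0 on the arrays labelled HEK-BAHD1 and between 9.81 and 10.06 on those labelled HEK293-CT, which goes against the labels. For HEK-BAHD1 cells the study gives higher BAHD1 and lower IGF2 mRNA by quantitative PCR, and lower IRS4 from its arrays. Under the deposited labels BAHD1 and, below, IRS4 went the opposite way. So did the sign of the probe set listing IGF2, which it shares with other genes and which was not called. Whether labels were exchanged was not tested, and every direction below is that of the labels as deposited. Signals are log2 values that the authors derived with the Robust Multichip Average (RMA), and array medians lay between 5.46 and 5.56. A gene was called at a limma adjusted p under 0.05 over the 21062 probe sets that name a gene, together with a difference of group medians above 0.2. By this rule 13.2% of probe sets were called, with 6.79% higher and 6.39% lower under the HEK-BAHD1 label. These calls comprised 1430 higher and 1345 lower probe sets, against 1052 higher and 1823 lower with the arrays centered on their medians. Of 11 measured markers of the HEK293 line, 9 lay above the array median on all arrays, among them the renal transcription factors EYA1 and SALL1. PAX8 and the neurofilament gene NEFM did not, and NEFM was the lowest with a mean of 4.87. Of the markers of other cell types, 0 of 5 endothelial, 1 of 5 hepatocyte, 2 of 5 fibroblast and 1 of 4 leukocyte genes lay above the median on all arrays. The leukocyte gene was LCP1, while PTPRC, which defines leukocytes, had a mean of 3.13. Of the HEK293 line markers, NEFM (log2 fold change 0.77) and NEFL (0.40) were called higher and VIM (-0.28) lower under the HEK-BAHD1 label, and of the other markers LCP1 (-0.34) and the fibroblast collagen COL3A1 (-0.31) were called lower. The summed linear signal of the leukocyte list was 1745 to 1811 on the arrays labelled HEK-BAHD1 and 2187 to 2315 on those labelled HEK293-CT, which is almost wholly LCP1, since PTPRC, CD3E and CD14 had means of 3.13, 4.30 and 5.02 and were not called. The sum of the fibroblast list was 217 to 228 on the arrays labelled HEK-BAHD1 and 223 to 240 on those labelled HEK293-CT. The part of these markers in the results below was not tested.

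Insulin and the IGFs signal through the related receptor tyrosine kinases INSR and IGF1R. The active receptors phosphorylate docking proteins of the IRS family, which recruit PI3-kinase and adaptors and so engage AKT, mTOR and the MAP kinases, while AKT keeps FOXO transcription factors out of the nucleus. IGF2R has no kinase activity and carries IGF2 to lysosomes, and the secreted IGFBPs bind IGFs outside the cell and set how much reaches the receptors. HEK293 cells are known for IRS4, which was first isolated from this line as an insulin receptor substrate.

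Of the 10 genes, the substrate IRS4 and the binding protein IGFBP2 were called higher under the HEK-BAHD1 label, and limma called none lower. These 2 calls make 20% of the genes, against the 13.2% called over all probe sets. At an unadjusted p under 0.05, 3 genes were higher and 1 was lower, beside 29.3% of all probe sets in either direction. The LPE test of the study's methods gave 2 higher and 0 lower genes, beside 6.29% of probe sets higher with that test. The median log2 fold change of the 10 genes was 0.12, beside 0.0033 over all probe sets tested, and 7 were positive, beside 50.4% of all probe sets. Groups without overlap were found for INSR, IRS4 and IGFBP2 upward and IRS1 downward, 4 genes in all, beside 33.6% of all probe sets (16.7% upward and 16.9% downward). With so few genes, none of these shares sets the family apart from the rest of the array.

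**Figure D1:**
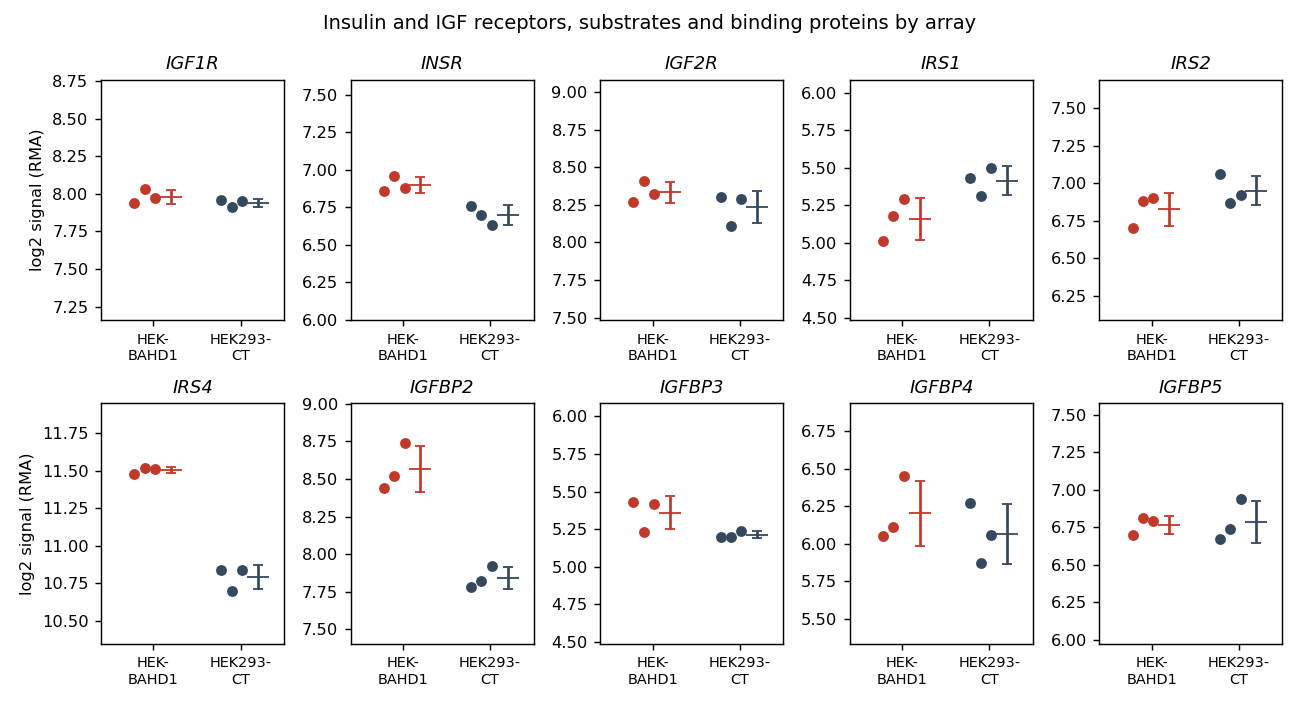
Log2 RMA signal (vertical axis, each panel spanning the same log2 range) of each gene by array label, HEK-BAHD1 (3 arrays) and HEK293-CT (3 arrays), with points for arrays and a line and bar for their mean and SD; IGF1R is shown by 1 of its probe sets. The group means lie apart by 0.71 for IRS4 and 0.73 for IGFBP2, and the points of both groups do not overlap there.

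Of the substrates, IRS4 was called higher, while IRS1 and IRS2 were not called. IRS4, a docking protein found in fewer tissues than IRS1 and IRS2, had log2 signals of 11.48, 11.52 and 11.51 on the arrays labelled HEK-BAHD1 and of 10.84, 10.70 and 10.84 on those labelled HEK293-CT. The 3 arrays labelled HEK-BAHD1 stood above all the others and were within 0.04 of each other. IRS4 was thus higher by a log2 fold change of 0.71 (standard error 0.060, 95% interval 0.57 to 0.85, limma adjusted p = 0.000866), which is a fold of 1.64. This direction, that of the deposited labels, is opposite to the one the study gives for the gene. Of all probe sets tested, 0.579% had a larger rise. In such bulk RNA, more cells that express a gene and more of its RNA per cell cannot be told apart. IRS1, the classical insulin receptor substrate, had log2 signals of 5.01, 5.18 and 5.29 on the arrays labelled HEK-BAHD1 and of 5.43, 5.31 and 5.50 on those labelled HEK293-CT. Its groups did not overlap either, though by only 0.02, and here the arrays labelled HEK-BAHD1 were the lower ones. The log2 fold change of IRS1 was -0.25 (95% interval -0.45 to -0.053), and it was not called (limma adjusted p = 0.0958). It was called lower with the arrays centered on their medians (log2 fold change -0.29, limma adjusted p = 0.0362) and after quantile normalization again (-0.29, limma adjusted p = 0.0405). The IRS1 signals of both groups were all under the medians of their arrays, and the deposited values give no detection call. IRS2, the substrate best known from liver and pancreatic beta cells, had log2 signals of 6.70, 6.88 and 6.90 on the arrays labelled HEK-BAHD1 and of 7.06, 6.87 and 6.92 on those labelled HEK293-CT. The groups overlapped, and the log2 fold change of -0.12 was not called (95% interval -0.31 to 0.059, limma adjusted p = 0.350). Between IRS4 and IRS1 the changes differed by 0.96 on the log2 scale (exact permutation test over arrays, two-sided, p = 0.10, the smallest that 3 arrays against 3 allow, and 0.10 after Benjamini-Hochberg over 3 such pairs).

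The substrate genes lie apart in the genome, IRS1 on chromosome 2 (GRCh38, 226731312 to 226799820), IRS2 on chromosome 13 (109752695 to 109786583) and IRS4 on chromosome X (108719946 to 108736563). Their start regions are shown because the genes of IRS4 and IRS2 share a stretch of letters there. Each window is 300 bases of the RefSeq sequence of GRCh38.p14, from 250 before to 50 after an annotated start, and is written in the sense of the gene. Of the 2 overlapping windows of IRS4 the one with the shared stretch is given. Capitals mark the shared stretch in IRS4 and IRS2, which reads CACNTG, 1 further base and TGTTTTG, and CACGTG in IRS1.
IRS4, chrX:108736328-108736627, minus strand: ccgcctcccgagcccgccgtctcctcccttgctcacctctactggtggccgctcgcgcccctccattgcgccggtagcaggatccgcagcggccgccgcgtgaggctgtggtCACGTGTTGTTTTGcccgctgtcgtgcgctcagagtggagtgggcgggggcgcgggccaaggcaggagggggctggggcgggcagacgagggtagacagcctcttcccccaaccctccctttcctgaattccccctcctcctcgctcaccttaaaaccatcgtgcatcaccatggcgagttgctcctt
IRS2, chr13:109786534-109786833, minus strand: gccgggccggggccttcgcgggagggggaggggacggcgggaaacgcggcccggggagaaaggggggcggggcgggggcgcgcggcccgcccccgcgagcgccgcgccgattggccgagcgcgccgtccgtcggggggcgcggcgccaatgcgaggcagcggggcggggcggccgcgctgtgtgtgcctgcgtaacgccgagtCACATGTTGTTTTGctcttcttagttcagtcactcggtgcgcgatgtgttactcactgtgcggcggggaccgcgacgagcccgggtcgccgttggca
IRS1, chr2:226799771-226800070, minus strand: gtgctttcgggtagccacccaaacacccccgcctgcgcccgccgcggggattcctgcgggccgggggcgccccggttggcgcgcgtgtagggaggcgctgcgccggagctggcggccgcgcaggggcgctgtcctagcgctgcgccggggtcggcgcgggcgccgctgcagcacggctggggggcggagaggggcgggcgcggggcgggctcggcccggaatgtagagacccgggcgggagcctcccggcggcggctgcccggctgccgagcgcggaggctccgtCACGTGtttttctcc
In IRS4 the stretch joins the E-box CACGTG to TGTTTTG, the core of the insulin response element that FOXO factors are known to bind. In IRS2 its first letters are not CACGTG. It started at position -138 in IRS4 and at -47 in IRS2, counted from the annotated start of the window shown. The other window of IRS4 (chrX:108736514-108736813) belongs to an annotated start further upstream, and the stretch lies downstream of that start. CACGTG alone started at position 36 in IRS1, in a window without TGTTTTG. It was in 3 of the 13 windows of the 10 genes, those of IRS4, IRS1 and the receptor gene IGF2R. The window of IGF2R, which was not called, held it 3 times. Searched on both strands of 35116 windows, CACGTG was in 7.26% of windows and TGTTTTG in 4.92%. The joint stretch was in 3 windows, those of IRS2, IRS4 and the antisense gene IRS4-AS1, whose window covers the same site. The stretch was picked by reading these windows, so its rarity elsewhere is a description. Of the 2 genes that share it, IRS4 was called higher and IRS2 was not called.

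None of the receptors was called by limma. IGF1R, the receptor of IGF1 and IGF2, had log2 signals of 7.94, 8.03 and 7.97 on the arrays labelled HEK-BAHD1 and of 7.96, 7.91 and 7.95 on those labelled HEK293-CT with 1 probe set. With the other probe set it had 8.0, 8.0 and 7.91 on the arrays labelled HEK-BAHD1 and 7.99, 7.81 and 7.94 on those labelled HEK293-CT. The groups overlapped with both, and their 95% intervals for the log2 fold change were -0.083 to 0.16 and -0.096 to 0.21 (limma adjusted p = 0.673 and 0.625). INSR, the insulin receptor, had log2 signals of 6.86, 6.96 and 6.88 on the arrays labelled HEK-BAHD1 and of 6.76, 6.70 and 6.63 on those labelled HEK293-CT. All 3 arrays labelled HEK-BAHD1 lay above the others, but the log2 fold change of 0.20 was not called (95% interval 0.065 to 0.34, limma adjusted p = 0.0624, difference of medians 0.18). IGF2R, which clears IGF2, had log2 signals of 8.27, 8.41 and 8.32 on the arrays labelled HEK-BAHD1 and of 8.30, 8.11 and 8.29 on those labelled HEK293-CT. These groups overlapped (log2 fold change 0.10, 95% interval -0.068 to 0.27, limma adjusted p = 0.414). The changes of INSR and IGF1R differed by 0.16 on the log2 scale (exact permutation test, two-sided, p = 0.10, the smallest this design allows).

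Among the binding proteins, IGFBP2 was the only one called. IGFBP2, which binds IGF2 with high affinity and is abundant in fetal tissue, had log2 signals of 8.44, 8.52 and 8.74 on the arrays labelled HEK-BAHD1 and of 7.78, 7.82 and 7.92 on those labelled HEK293-CT. The lowest array labelled HEK-BAHD1 was above the highest labelled HEK293-CT by 0.52. The log2 fold change was 0.73 (standard error 0.086, 95% interval 0.53 to 0.93, limma adjusted p = 0.00292), a fold of 1.65, and 0.546% of all probe sets had a larger rise. IGFBP5, which binds extracellular matrix as well as IGFs, is its neighbor on chromosome 2. IGFBP2 (216632828 to 216664436) and IGFBP5 (216672105 to 216695549) are 7668 bases apart, with 0 annotated genes between them, and run toward each other. IGFBP5 had log2 signals of 6.70, 6.81 and 6.79 on the arrays labelled HEK-BAHD1 and of 6.67, 6.74 and 6.94 on those labelled HEK293-CT. Its groups overlapped, and the log2 fold change was -0.017 (95% interval -0.20 to 0.17, limma adjusted p = 0.919). The changes of IGFBP2 and IGFBP5 differed by 0.74 on the log2 scale (exact permutation test, two-sided, p = 0.10, the smallest this design allows). IGFBP3, the main carrier of IGFs in serum, had log2 signals of 5.43, 5.23 and 5.42 on the arrays labelled HEK-BAHD1 and of 5.20, 5.20 and 5.24 on those labelled HEK293-CT. The groups overlapped and it was not called (log2 fold change 0.15, 95% interval -0.012 to 0.31, limma adjusted p = 0.202), and all 6 of its signals were under the lowest array median. IGFBP4, an inhibitor of IGF action that pappalysins cleave, had the widest spread of the family on both groups of arrays. Its log2 signals were 6.05, 6.11 and 6.45 on the arrays labelled HEK-BAHD1 and 6.27, 5.87 and 6.06 on those labelled HEK293-CT (log2 fold change 0.14, 95% interval -0.17 to 0.44, limma adjusted p = 0.551).

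**Figure D2:**
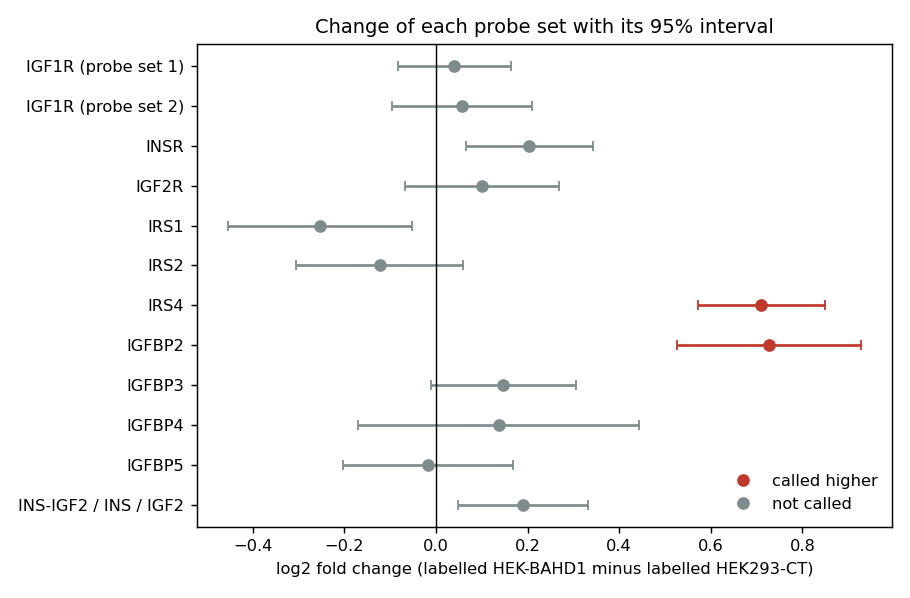
Log2 fold change (horizontal axis, labelled HEK-BAHD1 minus labelled HEK293-CT) of each probe set of the family and of the one listing INS-IGF2, INS and IGF2, as limma estimates from 3 arrays per group with their 95% intervals. IRS4 at 0.71 and IGFBP2 at 0.73 were called, and the other intervals lie between -0.45 and 0.44.

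The start region of IGFBP2 is shown as the second gene with a called change. Of its 3 annotated windows the one richest in G and C (70.0%) is given, with the GC box GGGCGG in capitals.
IGFBP2, chr2:216633170-216633469, plus strand: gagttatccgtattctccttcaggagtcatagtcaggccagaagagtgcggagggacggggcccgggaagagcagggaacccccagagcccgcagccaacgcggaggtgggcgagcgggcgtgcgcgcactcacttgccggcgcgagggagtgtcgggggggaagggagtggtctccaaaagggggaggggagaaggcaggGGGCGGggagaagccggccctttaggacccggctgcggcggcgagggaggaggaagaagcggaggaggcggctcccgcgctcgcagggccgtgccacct
The 13 windows of the 10 genes held between 55.3% and 79.7% G and C, and 11 of them lay above the median of 58.7% over all windows. GGGCGG was in 11 of the 13 windows and in 45.0% of all windows, on either strand. TATAAA was in 1 of the 13, that of IGFBP4, where it started at position -29, and in 11.5% of all windows. The window of IGFBP5 had neither.

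The ligands were measured less well than the receptors. IGF1 had log2 signals of 3.22, 3.26 and 3.31 on the arrays labelled HEK-BAHD1 and of 3.18, 3.21 and 3.19 on those labelled HEK293-CT, all under the array medians. The groups did not overlap, by 0.01, and the log2 fold change of 0.07 was not called (limma adjusted p = 0.430). IGF2 and INS share a probe set with their read-through gene INS-IGF2, so that its signal belongs to no single gene. The probe set had log2 signals of 5.44, 5.44 and 5.45 on the arrays labelled HEK-BAHD1 and of 5.31, 5.15 and 5.30 on those labelled HEK293-CT. The groups did not overlap, and the log2 fold change of 0.19 was not called (95% interval 0.048 to 0.33, limma adjusted p = 0.0819, difference of medians 0.14). Its sign under the deposited labels is opposite to the direction the study gives for IGF2 mRNA by quantitative PCR. The receptor-like kinase INSRR (0.19) and the IGF2 mRNA-binding proteins IGF2BP1, IGF2BP2 and IGF2BP3 (-0.047, 0.12 and 0.04) were not called either. None of these 4 genes passed at an unadjusted p under 0.05 or with the LPE test.

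Of 9 further binding proteins and regulators of their turnover, 1 was called higher, 1 lower and 7 neither, with a median log2 fold change of 0.10. The serine protease HTRA1, which can cleave IGFBPs, had log2 signals of 7.42, 7.41 and 7.42 on the arrays labelled HEK-BAHD1 and of 7.01, 6.82 and 6.85 on those labelled HEK293-CT. It was higher by 0.52 (standard error 0.064, limma adjusted p = 0.00321). STC1, a stanniocalcin that inhibits the pappalysin PAPPA, had log2 signals of 4.43, 4.54 and 4.56 on the arrays labelled HEK-BAHD1 and of 5.18, 4.97 and 4.90 on those labelled HEK293-CT. It was lower at -0.51 (standard error 0.083, limma adjusted p = 0.00937), and its signals were under the array medians. Both calls held with any single array left out. STC2, the other stanniocalcin listed, went the opposite way to STC1, at 0.26, with groups that did not overlap. It was not called (limma adjusted p = 0.0903), and its signals were above the array medians. PAPPA and its relative PAPPA2 were at 0.027 and -0.14 and were not called, nor was IGFBP1, which lies beside IGFBP3, at 0.023. IGFBPL1 was at 0.42 with groups that did not overlap and missed the threshold (limma adjusted p = 0.0565).

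Of 114 other genes listed for the pathway, from ligands to FOXO targets, 98 had a probe set of their own, and 12 of these were called higher and 10 lower. Their median log2 fold change was 0.0017, and the 22.4% called compares with 13.2% over all probe sets. That 13.2% takes in dim probe sets. Without the dimmest 30% of probe sets, and with fit and adjustment redone, 3141 were called (1570 higher and 1571 lower). Of the pathway genes, 14 were then called higher and 10 lower. Of all 21062 tested, 2775 were called, so more calls came from fewer probe sets. The 13.2% is therefore low for the brighter probe sets. The 22.4% is not read as a result about the pathway. Among 18 receptor adaptors and inhibitors, 3 were higher, 1 was lower and 14 were not called, with a median of 0.0017. The receptor phosphatase PTPRF, which acts on INSR, was higher by 0.69 (limma adjusted p = 0.00172), SOCS2 by 0.38 and the adaptor GRB10, which inhibits INSR and IGF1R, by 0.33. The call of GRB10 was lost without HEK-BAHD1 replicate 2 or 3 and without HEK293-CT replicate 1 or 3 (limma adjusted p at most 0.0664). SOCS6 had a log2 fold change of -0.29 that was lost without any single array other than HEK-BAHD1 replicate 2 (limma adjusted p at most 0.128) and with the replicate block (limma adjusted p = 0.0795). GRB2, SHC1 and PTPN11, which link the substrates to RAS, were not called, with log2 fold changes of -0.057, 0.033 and -0.13.

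Among 30 genes of the PI3-kinase, AKT and mTOR arm, 4 were higher, 2 were lower and 24 were not called, with a median of -0.052. The mTOR inhibitor DEPTOR had log2 signals of 6.96, 6.91 and 6.73 on the arrays labelled HEK-BAHD1 and of 6.05, 6.19 and 6.16 on those labelled HEK293-CT, and was higher by 0.73 (limma adjusted p = 0.00182). AKT1, the kinase that PI3-kinase activity engages, had log2 signals of 9.90, 9.82 and 9.98 on the arrays labelled HEK-BAHD1 and of 9.45, 9.43 and 9.41 on those labelled HEK293-CT. Its log2 fold change was 0.47 (limma adjusted p = 0.00347), while that of AKT2 was 0.13 and not called. PIK3CD, a catalytic subunit, was higher by 0.40 (limma adjusted p = 0.0147). RICTOR, the subunit that defines mTOR complex 2, had log2 signals of 8.09, 8.19 and 8.07 on the arrays labelled HEK-BAHD1 and of 8.70, 8.66 and 8.67 on those labelled HEK293-CT, and its log2 fold change was -0.56 (limma adjusted p = 0.00157). RPTOR and MTOR itself were at -0.043 and -0.16 and were not called. TRIB3, an AKT inhibitor in some cells, was at 0.23 and TSC1 at -0.26. Both calls were lost with the replicate block (limma adjusted p = 0.0711 and 0.0651) and without HEK-BAHD1 replicate 1 or any single HEK293-CT array. That of TRIB3 was also lost without HEK-BAHD1 replicate 2, and that of TSC1 without HEK-BAHD1 replicate 3 (limma adjusted p at most 0.114 and 0.0816 with 1 array left out). Over 16 alternative settings, the call of TRIB3 was lost in 9 and that of TSC1 in 7.

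Among 13 genes of the RAS and MAP kinase arm, 2 were higher by limma and none was lower, with a median of -0.023. They were the feedback inhibitors SPRY4 at 0.36 and SPRY1 at 0.29, calls that each fell away without any of 5 arrays (limma adjusted p at most 0.102 and 0.0858). SPRY4 was kept only without HEK293-CT replicate 2 and SPRY1 only without HEK293-CT replicate 1. Neither was called by the LPE test or with the arrays centered on their medians. Over 16 alternative settings, SPRY4 lost its call in 9 and SPRY1 in 8. For falls, 2 genes of this arm reached an unadjusted p under 0.05, and LPE gave 0.

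Among 23 FOXO factors and target genes, 2 were higher, 6 were lower and 15 were not called, with a median of -0.01. The 34.8% called compares with 13.2% over all probe sets, which takes in dim ones. Whether a list of so few genes stands apart was not tested. The list mixes genes that other signals also regulate. GADD45A, a stress gene, had log2 signals of 8.98, 9.06 and 9.12 on the arrays labelled HEK-BAHD1 and of 9.67, 9.74 and 9.65 on those labelled HEK293-CT (log2 fold change -0.63, limma adjusted p = 0.00132). The transcriptional repressor BCL6, the cell cycle inhibitor CDKN1B and the coactivator CITED2 were at -0.51, -0.39 and -0.34. The call of CITED2 was lost without HEK-BAHD1 replicate 1 or 2 and without HEK293-CT replicate 2 or 3 (limma adjusted p at most 0.0806). The remaining falls, KLHL24 at -0.28 and BCL2L11 at -0.24, lost their calls in 7 and 8 of 16 alternative settings. With the replicate block, 4 genes of this list were called lower. SESN3, a sestrin that dampens mTOR complex 1, was higher by 0.50 and the pseudokinase TRIB1 by 0.49. FOXO1, FOXO3 and FOXO4 themselves were not called, at -0.19, 0.13 and 0.053.

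**Figure D3:**
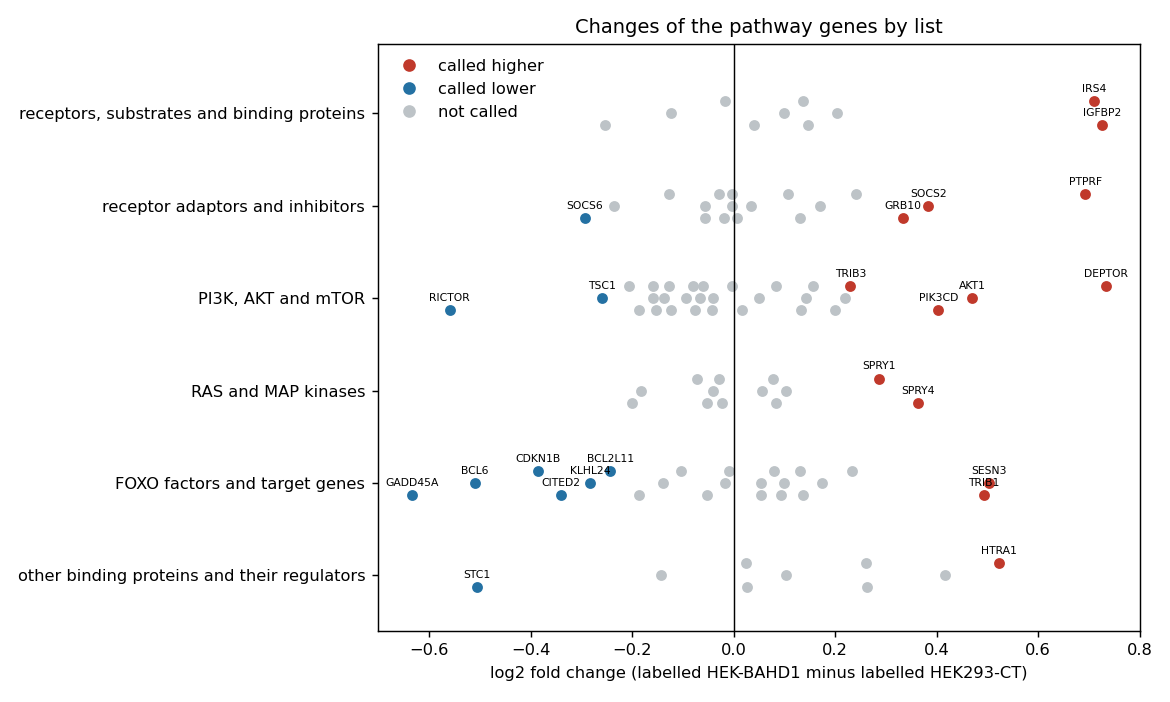
Log2 fold change (horizontal axis, labelled HEK-BAHD1 minus labelled HEK293-CT) of the measured genes of 6 lists, each point the limma estimate of 1 gene from 3 arrays per group, colored by its call. IRS4, IGFBP2, PTPRF and DEPTOR lie between 0.69 and 0.73, and GADD45A, RICTOR, BCL6 and STC1 between -0.63 and -0.51.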

How the data were processed

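Gene expression was measured in total RNA of 3 cultures per line. The authors made the deposited log2 values with RMA (version not given in the sources used here) from the probe intensities of each array. This method removes background, brings the arrays to a common distribution and combines the probes of each probe set, so that a low signal holds background as well as transcript. The values keep 2 decimals and no detection calls, and the number of arrays limits their precision. The deposited series has another accession number than the one the paper gives for its arrays, and was taken as the same experiment from its sample labels. The annotation of the array named 1 gene for 19310 probe sets, several for 1752 and none for 7807 of 28869.

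The 21062 probe sets naming a gene were tested with limma 3.58.1 in R 4.3.3 with Benjamini-Hochberg adjustment, without a block for the replicate number. Differences of medians were rounded before the threshold of 0.2. Counts took, per gene, the probe set of highest mean. The LPE test of the study's methods was rewritten from its description (100 bins, spline with 10 degrees of freedom). Methods were tested on simulated arrays. Same-numbered replicates of the lines correlated between -0.077 and 0.074 in their deviations from the group means, so the numbers were not taken to pair the samples. The members, gene lists and tests were chosen with earlier results of these data known. Values were given for all members, BAHD1, the probe set listing IGF2 and up to 4 called genes of each list in each direction, and other genes were named to show the arms of the pathway. Of the pathway genes listed, 3 lay only on probe sets that list several genes and 13 were not analysed here. Sequences were those of RefSeq for GRCh38.p14, in which all 10 members matched. The array annotation came without a stated genome build.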

Additional observations from a re-analysis of the deposited data

How the results depend on the processing

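The calls of IRS4 and IGFBP2 held under all 16 alternatives: each array left out, both other scalings, the replicate block, LPE, other variance models, other sets of probe sets and no threshold on medians. With 1 array left out their log2 fold changes ranged from 0.66 to 0.73 and from 0.64 to 0.79 (limma adjusted p at most 0.00652 and 0.0139). The count of members called lower was 1, IRS1, with the arrays centered on their medians and after quantile normalization again, and 0 otherwise. The log2 fold change of IGFBP5 turned to 0.062 without HEK293-CT replicate 3 and 0.017 without HEK-BAHD1 replicate 1, and ranged from -0.073 to 0.062 with 1 array left out. Its value with LPE was 0.05, because that test uses the difference of group medians in place of means. IGFBP5 was called under none of these, and the cause of the turns with 1 array left out was not tested. With the replicate block, 829 probe sets and 6 pathway genes were called lower, against 1345 and 10 without it, and no member changed its call. With 1 array left out, probe sets called higher ranged from 806 to 938 and lower from 581 to 937, pathway genes called higher from 8 to 11 and lower from 5 to 8, while members called higher stayed at 2 and lower at 0. Fewer arrays were then tested. Signals under the array medians, as for IRS1, IGFBP3 and IGF1, limit what can be said of those genes.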
